A study of Sus scrofa with 20 samples.

Results

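The precursor genes of the opioid peptide family, PDYN (prodynorphin), PENK (proenkephalin) and PNOC (prepronociceptin), and ADCYAP1, the gene of the pituitary adenylate cyclase-activating polypeptide PACAP, were followed in the hypothalamus of young pigs. The members were the Ensembl rows of the count table that carried one of these symbols, which gave 4 of 25880 gene rows. RNA had been sequenced from 20 animals aged 2 months, in 4 groups of 5: males and females of a cross of Iberian with Large White pigs, and males and females of pure Iberian pigs. Iberian pigs are a fatty breed and Large White pigs a lean one, and the labels name breed and sex as the factors. All groups share the Iberian parent breed, no pure Large White group was analysed here, and the labels record no treatment. Each library is 1 animal, and the labels name no litters.

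Opioid peptides are cut from long precursors by prohormone convertases and act on receptors that couple to the inhibitory Gi/o proteins. Dynorphins, from PDYN, favour the kappa receptor, enkephalins, from PENK, favour the delta and mu receptors, and nociceptin, from PNOC, acts on the related receptor OPRL1. In rodents, dynorphin is made by vasopressin and orexin neurons and, with kisspeptin and neurokinin B, by neurons of the arcuate nucleus that pace the release of gonadotropin-releasing hormone. PACAP belongs to the secretin, glucagon and VIP family, signals mainly through the receptor ADCYAP1R1 to raise cyclic AMP, and is made in rodents by neurons of the ventromedial and paraventricular nuclei that act on feeding and energy use.

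Counts assigned to genes came to 1430138 to 2384615 per library, or 4.04 to 4.62% of the entries counted. In all 20 libraries the mitochondrial gene ND6, which is copied from the opposite strand to the other mitochondrial messengers, had at least 19.8 times the counts of COX1, at most 53.7 times in 19 libraries and 141 times in Iberian male replicate 5, and no source used here says how strand was handled in counting. A symbol below therefore stands for the identifier that received the counts, and whether these came from its messenger was not tested. The tissue label was checked with 21 measured markers of hypothalamic nuclei, each with counts in at least 1 library, of which FEZF1 averaged 63.8 and AVP 13.1 CPM (CPM, counts scaled to an equal library size after edgeR's TMM scaling). AVP overlaps the locus LOC110257451, so its counts are uncertain. FOXB1 averaged 9.49 CPM, and 7 of the 21 markers had enough counts to be tested. Some others were nearly absent, with 1 count of VIP, 7 of SIM1, 7 of CRH, 14 of GHRH and 15 of GNRH1 over the 20 libraries. Measured markers of striatum and of thalamus also had counts in at least 1 library each, with RARB at 46.1 and CALB2 at 16.6 CPM on average, so these lists do not set the hypothalamus apart from its neighbours. Iberian male replicate 5 stood apart: it held 157 counts of PRL, 163 of CGA and 111 of FSHB, which are hormone genes of the anterior pituitary, against at most 4, 2 and 2 counts in any other library. Other pituitary genes were not raised there, with 2 counts of TSHB and 1 of POU1F1, against at most 1 and 5 elsewhere. Its summed hypothalamic markers were also the highest, at 226 CPM against at most 187 CPM in any other library. In that library mitochondrial messengers took 27.4% of gene counts, against at most 13.9% in any other, and its share of entries in no feature was the highest, at 88.1%. The share of entries lost to low alignment quality also split the libraries, at 2.73 to 3.88% in all 10 crossbred libraries and Iberian male replicates 1, 4 and 5, and at 5.33 to 5.92% in all 5 Iberian females and Iberian male replicates 2 and 3. Breed and this share therefore cannot be told apart among females, and they can be separated only through the Iberian males.

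The members were read at low depth. PDYN (ENSSSCG00000037684, Sscrofa11.1 chr17:33505075-33521534) had 7 to 22 counts per library and 250 in all. PENK (ENSSSCG00000006243, chr4:75525497-75530403) had 15 to 40 counts per library and 535 in all. PNOC (ENSSSCG00000032600, chr14:12101223-12134174), whose nearest annotated neighbour ZNF395 lies 1916 bp away, had 3 to 16 counts per library and 170 in all. ADCYAP1 (ENSSSCG00000035186, chr6:105414628-105422294), which overlaps the noncoding locus LOC102165393 and may share counts with it, was read most often, with 35 to 140 counts per library and 1701 in all. All 4 genes passed the filter on low counts. Counting error alone gives a coefficient of variation of 28.3% for PDYN, 19.3% for PENK, 34.3% for PNOC and 10.8% for ADCYAP1. The spread between libraries of a group, pooled over groups, was 23.5%, 20.8%, 43.0% and 18.6% in the same order, so that for PDYN and PENK the spread seen was close to that of counting error alone. Transcript lengths were not used here, so levels are compared between groups and not between genes.

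**Figure D1:**
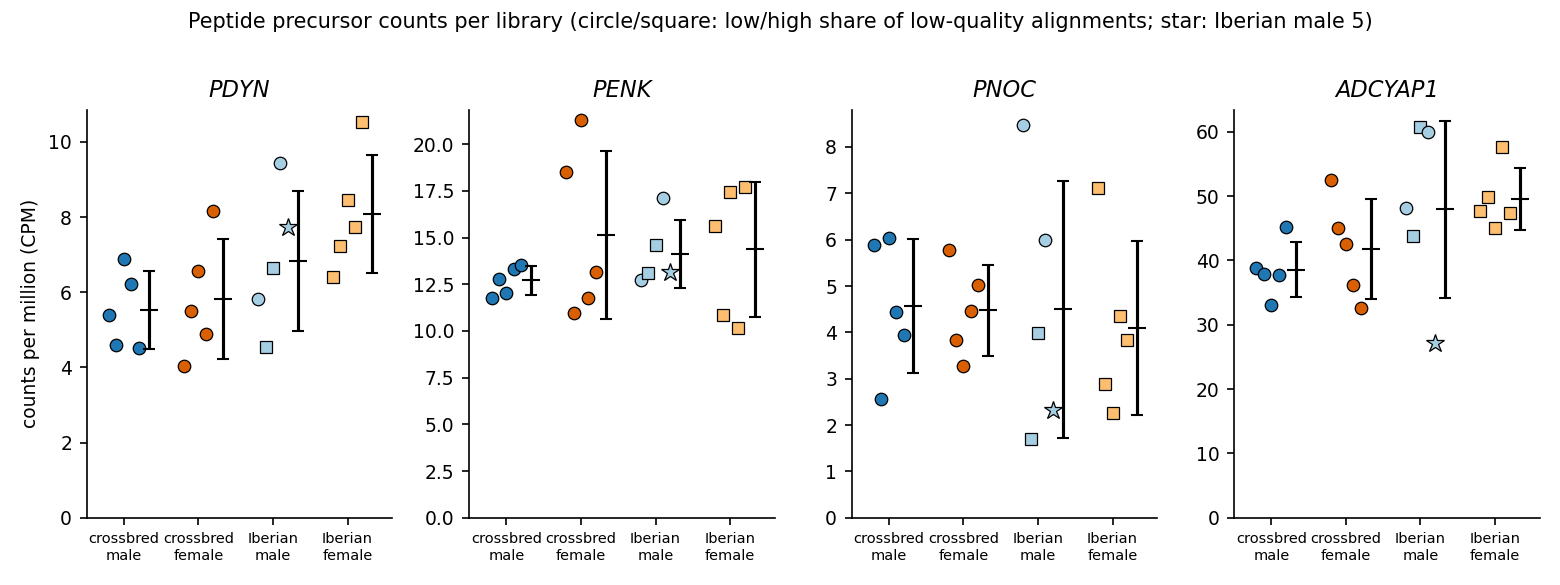
CPM (scaled gene counts, vertical axis, from 0) of the 4 precursor genes in each of the 20 libraries, by group; bars show the group mean and SD (n = 5). PDYN and ADCYAP1 sat lower in most crossbred libraries, PENK and PNOC overlapped widely, and Iberian male replicate 5 (star) had the lowest ADCYAP1 value of all 20.

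For breed, none of the 4 genes passed an adjusted p of 0.05 (Benjamini-Hochberg over all tested genes) in edgeR's quasi-likelihood test, in which 16 of 7090 genes (0.226%) were called, 13 higher (0.183%) and 3 lower (0.0423%) in crossbred pigs. PDYN and ADCYAP1 had lower means in crossbred pigs in both sexes, while PENK and PNOC differed by less than their spread. At an unadjusted p under 0.05, the test counted 2 of the 4 members, PDYN and ADCYAP1, both lower in crossbred pigs, against 530 of all 7090 genes (7.48%), 277 of them lower (3.91%). The median log2 difference was -0.17 over the 4 members and -0.004 over all tested genes. In bulk tissue, fewer cells of a type and less RNA per cell cannot be told apart.

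PDYN, the source of the dynorphins, measured 5.40, 4.61, 6.89, 6.23 and 4.51 CPM in the crossbred males (replicates 1 to 5), against 5.82, 4.55, 6.64, 9.42 and 7.75 CPM in the Iberian males. In females it measured 4.04, 5.49, 6.55, 4.88 and 8.16 CPM in crossbred animals, against 6.40, 7.23, 8.45, 7.74 and 10.5 CPM in Iberian animals. The breeds overlapped, with 9 of 10 crossbred libraries below the Iberian median and crossbred female replicate 5 the exception. The mean was 5.68 ± 1.27 CPM in crossbred pigs and 7.45 ± 1.75 CPM in Iberian pigs (SD, n = 10 each). The edgeR log2 difference, crossbred minus Iberian, was -0.40 (SE 0.19, 95% interval -0.78 to -0.016, adjusted p = 0.640), with an unadjusted p of 0.0417. A two-sided permutation test of mean CPM gave an unadjusted p of 0.0178. Without Iberian male replicate 5, the edgeR difference was -0.38 (SE 0.20, adjusted p = 0.591) and the permutation p was 0.0281. Ordered by mean, Iberian females (8.07 ± 1.57 CPM) were followed by Iberian males (6.84 ± 1.86), crossbred females (5.82 ± 1.59) and crossbred males (5.53 ± 1.03), and each neighbouring pair lay within its spread.

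PENK, the source of the enkephalins, measured 11.8, 12.8, 12.1, 13.3 and 13.5 CPM in the crossbred males (replicates 1 to 5), against 12.7, 13.1, 14.6, 17.1 and 13.2 CPM in the Iberian males. In females it measured 18.5, 10.98, 21.3, 11.8 and 13.2 CPM in crossbred animals, against 15.6, 10.8, 17.5, 10.2 and 17.7 CPM in Iberian animals. The crossbred males were the most uniform group, within 11.8 to 13.5 CPM, and both female groups were spread more widely around similar means. The mean was 13.9 ± 3.31 CPM in crossbred pigs and 14.3 ± 2.71 CPM in Iberian pigs (SD, n = 10 each). The edgeR log2 difference was -0.051 (SE 0.15, 95% interval -0.36 to 0.26, adjusted p = 0.958), so that the data allow a crossbred level from 0.778 to 1.20 times the Iberian one. Without Iberian male replicate 5 the difference was -0.063 (SE 0.15, adjusted p = 0.942). By mean, the order was crossbred females (15.1 ± 4.51 CPM), Iberian females (14.4 ± 3.62), Iberian males (14.1 ± 1.83) and crossbred males (12.7 ± 0.770), and no neighbouring pair differed beyond its spread.

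PNOC, the source of nociceptin, was the gene with the fewest counts and the widest relative spread. It measured 5.89, 2.56, 6.03, 4.45 and 3.95 CPM in the crossbred males (replicates 1 to 5), against 8.47, 1.71, 3.99, 5.998 and 2.32 CPM in the Iberian males. In females it measured 5.78, 3.84, 3.28, 4.47 and 5.02 CPM in crossbred animals, against 7.11, 2.89, 2.25, 4.35 and 3.83 CPM in Iberian animals. Replicate 1 was the highest library in crossbred females (5.78 CPM), Iberian males (8.47 CPM) and Iberian females (7.11 CPM) and second in crossbred males (5.89 against 6.03 CPM). The labels name no pairing of animals by these numbers across groups. The mean was 4.53 ± 1.16 CPM in crossbred pigs and 4.29 ± 2.24 CPM in Iberian pigs (SD, n = 10 each). The edgeR log2 difference was 0.066 (SE 0.27, 95% interval -0.48 to 0.62, adjusted p = 0.976), which allows 0.715 to 1.53 times the Iberian level. Without Iberian male replicate 5 the difference was 0.0057 (SE 0.26, adjusted p = 0.997). Its 4 group means, 4.58 ± 1.44 CPM in crossbred males, 4.496 ± 2.78 in Iberian males, 4.48 ± 0.978 in crossbred females and 4.09 ± 1.87 in Iberian females, lay within 1 SD of one another.

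ADCYAP1, the PACAP gene, measured 38.8, 37.9, 33.1, 37.8 and 45.1 CPM in the crossbred males (replicates 1 to 5), against 48.2, 43.8, 60.7, 60.0 and 27.1 CPM in the Iberian males. In females it measured 52.6, 45.0, 42.6, 36.2 and 32.6 CPM in crossbred animals, against 47.6, 49.9, 45.0, 57.6 and 47.4 CPM in Iberian animals. In 9 of 10 crossbred libraries the value was below the Iberian median, yet the lowest library of all was Iberian male replicate 5, the one with pituitary hormone transcripts. Per gene count that was not mitochondrial, without TMM scaling, it was still the lowest at 31.7 CPM, next to 35.5 CPM in crossbred female replicate 5, and the means were 45.0 ± 7.45 CPM in crossbred pigs and 54.2 ± 10.2 CPM in Iberian pigs (SD, n = 10 each). The mean was 40.2 ± 6.17 CPM in crossbred pigs and 48.7 ± 9.76 CPM in Iberian pigs (SD, n = 10 each), and 51.1 ± 6.50 CPM in the 9 Iberian pigs without that animal. The edgeR log2 difference was -0.29 (SE 0.12, 95% interval -0.54 to -0.045, adjusted p = 0.564), with an unadjusted p of 0.0223. Without Iberian male replicate 5 it was -0.36 (SE 0.10, unadjusted p = 0.00112, adjusted p = 0.149), still short of the threshold. A two-sided permutation test of mean CPM gave an unadjusted p of 0.0333 with all libraries and 0.00195 without that library. By mean, the order was Iberian females (49.5 ± 4.82 CPM), Iberian males (47.9 ± 13.8), crossbred females (41.8 ± 7.79) and crossbred males (38.6 ± 4.29), and each neighbouring pair overlapped.

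**Figure D2:**
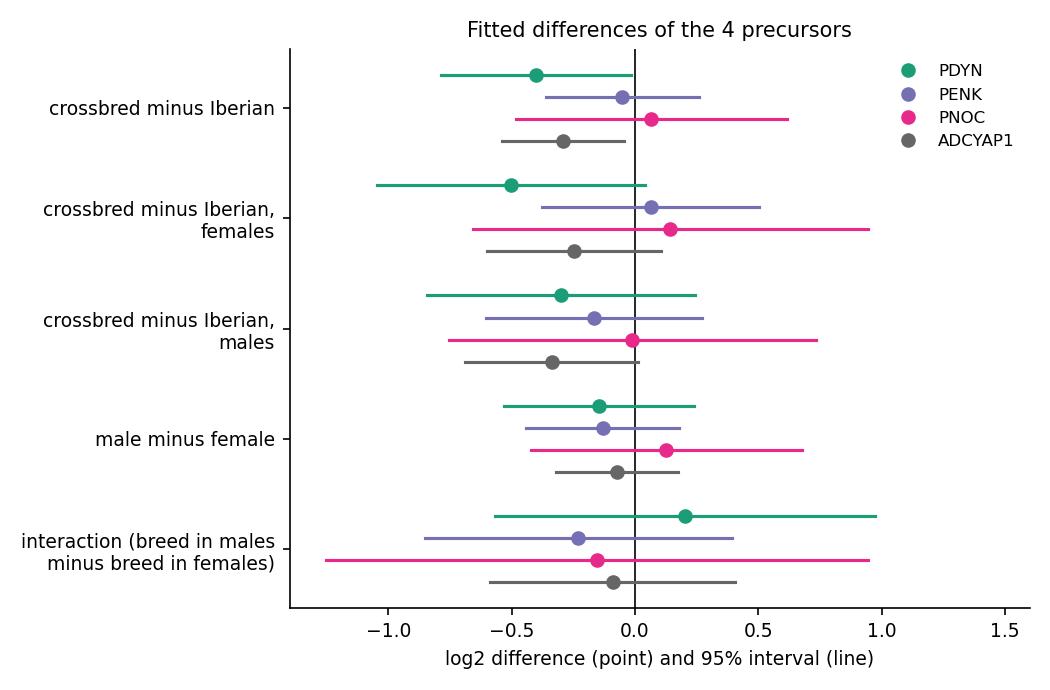
Log2 differences fitted by edgeR (points, horizontal axis) with 95% intervals (lines) for the 4 precursor genes in 5 comparisons. For breed, the PDYN interval ends at -0.016 and the ADCYAP1 interval at -0.045, while every other interval in the plot crosses 0.

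Within males, the edgeR log2 difference between crossbred and Iberian animals was -0.34 (SE 0.17, 95% interval -0.69 to 0.012, adjusted p = 0.476) for ADCYAP1 and -0.30 (SE 0.27, 95% interval -0.84 to 0.24, adjusted p = 0.701) for PDYN. It was -0.17 (SE 0.22, adjusted p = 0.804) for PENK and -0.011 (SE 0.36, adjusted p = 0.995) for PNOC, and 2 of 7090 genes (0.0282%) were called in that comparison. ADCYAP1 was below the Iberian male median in 5 of 5 crossbred males, and an exact two-sided permutation test gave p = 0.214 with all 10 males and p = 0.0317 without Iberian male replicate 5. The edgeR difference without that library was -0.47 (SE 0.15, adjusted p = 0.203). Of 11 marker lists, only those of striatum and of oligodendrocytes did not overlap between the male groups, and they differed in opposite directions. Between these groups, 761 of 7090 genes had an unadjusted p under 0.05 by edgeR. How many of all genes did not overlap was not counted. Summed CPM of 12 striatal markers was 66.6 to 91.4 in crossbred males, against 92.1 to 109 in Iberian males. The most abundant of them, RARB, averaged 46.1 CPM over all libraries. Of the 4 striatal markers tested by edgeR in males, 3 were higher and 1 lower in crossbred animals, none past the threshold. For 6 oligodendrocyte markers the sum was 1618 to 1876 in crossbred males, against 1406 to 1587 in Iberian males. The part of these differences in the male results was not tested beyond the striatal correlations given below.

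Within females, PDYN had the largest of the 4 differences, -0.50 (SE 0.27, 95% interval -1.05 to 0.041, adjusted p = 0.913) by edgeR, with 5.82 ± 1.59 CPM in crossbred and 8.07 ± 1.57 CPM in Iberian females (SD, n = 5 each) and an exact two-sided permutation p of 0.0635. ADCYAP1 differed by -0.25 (SE 0.17, 95% interval -0.60 to 0.10, adjusted p = 0.946) with an exact permutation p of 0.127. PENK differed by 0.064 (SE 0.22, adjusted p = 0.998) and PNOC by 0.14 (SE 0.39, adjusted p = 0.998), and edgeR called 0 of 7090 genes (0%), with 392 (5.53%) at an unadjusted p under 0.05. With DESeq2 the count of called genes was 0 and with limma voom it was 1. With the share of low-quality alignments as a term, the female difference was -0.94 (SE 0.46) for PDYN and -0.059 (SE 0.30) for ADCYAP1, and without Iberian male replicate 5 as well it was -0.95 (SE 0.50) for PDYN and -0.30 (SE 0.26) for ADCYAP1. Iberian males alone inform that term, since all crossbred females had a low and all Iberian females a high share.

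Between sexes, male minus female, no member passed the threshold, and edgeR called 5 of 7090 genes (0.0705%). PDYN averaged 6.18 ± 1.58 CPM in males and 6.95 ± 1.90 CPM in females (SD, n = 10 each), a log2 difference of -0.15 (SE 0.19, 95% interval -0.53 to 0.24, adjusted p = 0.9999). PENK averaged 13.4 ± 1.52 CPM in males and 14.8 ± 3.88 CPM in females, a difference of -0.13 (SE 0.15, 95% interval -0.44 to 0.18, adjusted p = 0.9999). PNOC and ADCYAP1 differed by 0.13 (SE 0.27, 95% interval -0.42 to 0.68, adjusted p = 0.9999) and -0.073 (SE 0.12, 95% interval -0.32 to 0.18, adjusted p = 0.9999). The intervals leave room for sex differences of up to 1.598 times for PNOC and 1.13 times for ADCYAP1 in favour of males. The breed difference in males minus that in females was 0.20 (SE 0.38, 95% interval -0.57 to 0.97, adjusted p = 0.925) for PDYN, -0.23 (SE 0.30, adjusted p = 0.872) for PENK, -0.15 (SE 0.54, adjusted p = 0.966) for PNOC and -0.090 (SE 0.24, adjusted p = 0.954) for ADCYAP1, in a comparison where edgeR called 1 gene (0.0141%). A dependence of the breed difference on sex was thus not detectable at this depth.

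The share of low-quality alignments moved with breed, so the members were also read against it. Among Iberian males, PDYN was 7.66 CPM on average in the 3 libraries with a low share and 5.60 CPM in the 2 with a high share, and PNOC was 5.60 CPM in the low-share and 2.85 CPM in the high-share libraries. ADCYAP1 was 45.1 CPM in the low-share and 52.2 CPM in the high-share Iberian males. With the share as a term, which these 5 Iberian males alone inform, the breed log2 difference was -0.70 (SE 0.32, adjusted p = 0.412, edgeR) for PDYN, -0.16 (SE 0.21, adjusted p = 0.800) for ADCYAP1 and -0.59 (SE 0.45, adjusted p = 0.629) for PNOC, the last with a turned sign. When Iberian male replicate 5 was left out as well, a setting chosen after seeing the data, ADCYAP1 was -0.40 (SE 0.19, adjusted p = 0.805). Within the low-share males, the breed difference was -0.46 (SE 0.31) for PDYN and -0.25 (SE 0.22) for ADCYAP1, and -0.49 (SE 0.19) for ADCYAP1 without that library. PDYN and ADCYAP1 had lower crossbred values in each of these fits, none of which passed the threshold. For ADCYAP1 the difference with the term and all libraries, -0.16, was smaller than its SE of 0.21. The term rests on 3 low-share and 2 high-share Iberian males, and the part of the share was not tested further.

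**Figure D3:**
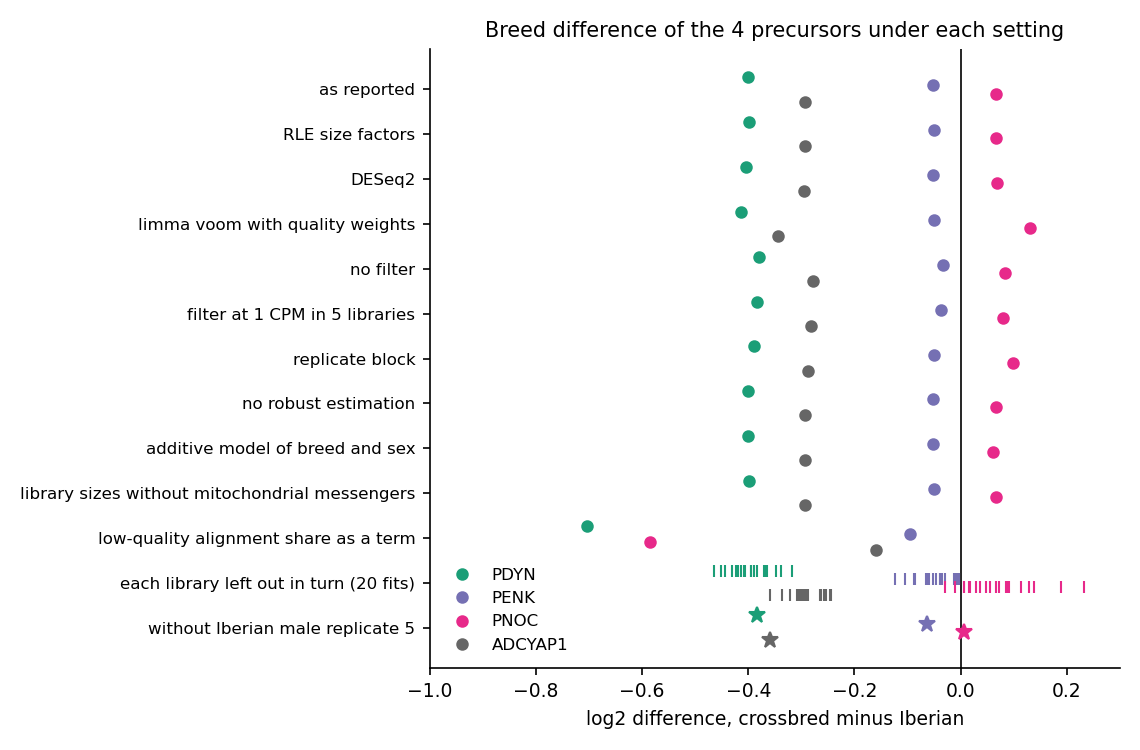
Breed log2 difference (horizontal axis, crossbred minus Iberian) of the 4 precursor genes under each setting named on the vertical axis; ticks are the 20 fits that each leave out 1 library and stars the fit without Iberian male replicate 5. In the fits plotted, PDYN lies between -0.70 and -0.32 and ADCYAP1 between -0.36 and -0.16, whereas PNOC lies on both sides of 0; the share term without Iberian male replicate 5, with PDYN at -0.71 and ADCYAP1 at -0.40, is not plotted.

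Over the 20 libraries, Pearson's r of log2 CPM for the 6 pairs of members ran from -0.006 to 0.22, and none of 20 relations computed passed Benjamini-Hochberg adjustment. PDYN and AVP, the vasopressin gene, had r = 0.32 (permutation p = 0.173, adjusted p = 0.785) and Spearman's rho = 0.37 (permutation p = 0.102, adjusted p = 0.528). The r of this pair was 0.46 without the 2 libraries farthest in PDYN, 0.28 without Iberian male replicate 5 and 0.23 within groups. It was 0.46 in the 13 low-share libraries and 0.14 in the 7 high-share libraries. PDYN and HCRT, the orexin gene, had r = 0.18 (permutation p = 0.461, adjusted p = 0.785) and rho = 0.26 (permutation p = 0.259, adjusted p = 0.866). For them r was 0.39 without Iberian male replicate 5, 0.47 within groups, 0.17 in the low-share and 0.53 in the high-share libraries. HCRT overlaps GHDC, so its counts are uncertain. The smallest p of the 20 was that of PDYN with the summed striatal markers, of which RARB was the most abundant at 46.1 CPM. This pair had r = 0.43 (permutation p = 0.0599, adjusted p = 0.785) and rho = 0.37 (permutation p = 0.106, adjusted p = 0.528). That r was 0.33 without the 2 farthest libraries, 0.46 within groups, 0.55 in the 13 low-share libraries and 0.091 in the 7 high-share libraries. ADCYAP1 had r = -0.017 with the same striatal sum (permutation p = 0.943, adjusted p = 0.977; rho = 0.13, permutation p = 0.573). Without the 2 farthest libraries that r was 0.39, and without Iberian male replicate 5 it was 0.31. Within groups it was -0.38, in the low-share libraries -0.13 and in the high-share libraries 0.052. With the summed hypothalamic markers, of which FEZF1 was the most abundant at 63.8 CPM, ADCYAP1 had r = -0.36 (permutation p = 0.114, adjusted p = 0.785). There r was -0.54 within groups and -0.12 without Iberian male replicate 5.

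The tested genes whose log2 CPM followed each member most closely over the 20 libraries, among 5995 with a symbol, were taken by Pearson's r as a description, since the same libraries, depths and groups underlie all of them. For PDYN they were LLGL1 (r = 0.75, rho = 0.78), CCT5 (r = 0.73, rho = 0.81) and PSMC5 (r = 0.72, rho = 0.69). For PENK they were PGLS (r = 0.69, rho = 0.70), TNKS (r = 0.66, rho = 0.65) and C12orf56 (r = 0.65, rho = 0.56). For PNOC they were DNAAF5 (r = 0.68, rho = 0.69), CUL3 (r = 0.67, rho = 0.55) and ISG15 (r = 0.67, rho = 0.68). For ADCYAP1, with the highest r of all, they were RALGAPA1 (r = 0.84, rho = 0.83), DDIAS (r = 0.78, rho = 0.71) and SLC16A6 (r = 0.74, rho = 0.64), and without Iberian male replicate 5 the r with RALGAPA1 was 0.78. These genes were picked for the highest r, so no likeness was tested.

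Of 8 receptor genes listed for these peptides, 7 were in the table and 2 had enough counts to be tested, and neither was called in any of the 5 comparisons. OPRL1, the nociceptin receptor, measured 5.89, 8.19, 7.32, 6.23 and 10.2 CPM in the crossbred males (replicates 1 to 5), against 7.94, 7.96, 7.09, 4.71 and 3.87 CPM in the Iberian males. In females it measured 4.62, 7.14, 10.4, 8.94 and 6.90 CPM in crossbred animals, against 4.98, 3.62, 5.63, 3.87 and 4.79 CPM in Iberian animals. Its values overlapped in both sexes, with means of 7.58 ± 1.85 CPM in crossbred pigs and 5.45 ± 1.66 CPM in Iberian pigs (SD, n = 10 each). The edgeR breed log2 difference was 0.48 (SE 0.20, adjusted p = 0.558), with an unadjusted p of 0.0202, and it was 0.73 (SE 0.29) in females and 0.23 (SE 0.27) in males. For its ligand gene PNOC the breed difference was 0.066.

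ADCYAP1R1, the PACAP receptor, measured 19.6, 17.4, 20.7, 18.2 and 16.4 CPM in the crossbred males (replicates 1 to 5), against 10.6, 11.4, 15.1, 18.4 and 13.2 CPM in the Iberian males. In females it measured 11.6, 15.9, 15.3, 16.7 and 27.0 CPM in crossbred animals, against 16.3, 13.7, 23.7, 10.2 and 20.6 CPM in Iberian animals. Among males, Iberian replicate 4 was the one library that reached the crossbred range, and the female values overlapped widely. The breed log2 difference was 0.22 (SE 0.16, adjusted p = 0.796) by edgeR, beside -0.29 for ADCYAP1 itself, and it was 0.41 (SE 0.23, adjusted p = 0.506) in males.

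**Figure D4:**
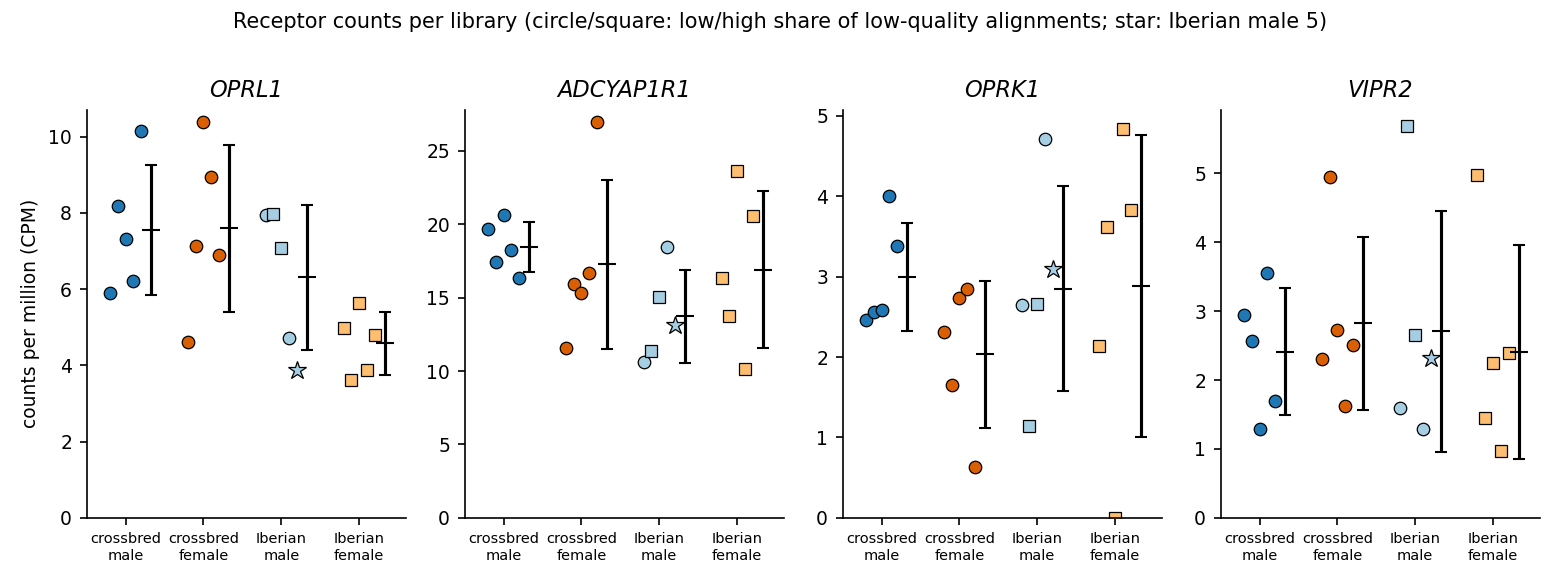
CPM (vertical axis, from 0) of the receptor genes OPRL1, ADCYAP1R1, OPRK1 and VIPR2 in each library, by group, with the group mean and SD (n = 5). Crossbred pigs averaged 7.58 CPM of OPRL1 against 5.45 CPM in Iberian pigs, with overlapping libraries.

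The other receptors were at the limit of the depth. OPRK1, the kappa receptor of dynorphin, had 5, 5, 6, 9 and 6 counts in crossbred males, 4, 3, 5, 7 and 1 in crossbred females, 5, 2, 6, 11 and 4 in Iberian males and 3, 5, 0, 10 and 8 in Iberian females, so each breed held close to the same total, 51 in crossbred and 54 in Iberian pigs. OPRM1, the mu receptor, had 24 counts over all 20 libraries and 0 to 4 in any of them. VIPR1 and VIPR2, which bind PACAP and VIP, had 22 and 96 counts. OPRD1, the delta receptor, was not analysed here. Of the related precursors, VIP had 1 count, GHRH 14, SCT (secretin) 34, GIP 1 and GCG (proglucagon) 0 counts over the 20 libraries, and POMC, the precursor of beta-endorphin, was not analysed here.

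The genes that mature, degrade and transmit these peptides were described by list, and no tested gene of these lists passed the threshold in any of the 5 comparisons. KCNJ5, which had too few counts for the filter, passed it for breed in the fit without a filter and is given among the closing observations. Of 10 genes of precursor processing 7 were tested, 2 with a breed difference above 0, and their median was -0.14. The most abundant were PCSK1N, an inhibitor of prohormone convertase 1, at -0.13 (SE 0.12, adjusted p = 0.846), CPE, the carboxypeptidase that trims the cut peptides, at 0.072 (SE 0.092, adjusted p = 0.896), and PAM, which amidates peptides, at -0.16 (SE 0.15, adjusted p = 0.852), all by edgeR. PCSK1, the convertase itself and chosen after its values were seen, had the smallest p of the list for breed, at -0.64 (SE 0.33, adjusted p = 0.669), and averaged 4.53 ± 2.28 CPM in crossbred pigs and 7.21 ± 5.52 CPM in Iberian pigs (SD, n = 10 each), with the Iberian mean at 5.60 ± 2.25 CPM without replicate 5 of the males. Of 12 degrading enzymes 2 were tested: NPEPPS, a puromycin-sensitive aminopeptidase, at 0.035 (SE 0.17, adjusted p = 0.981), and ECE1, a metalloprotease that degrades peptides in endosomes, at -0.49 (SE 0.23, adjusted p = 0.650). ECE1 had an unadjusted p of 0.0465, and with the share of low-quality alignments as a term and without Iberian male replicate 5 its difference was -0.12.

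Downstream of the opioid receptors, 11 of 21 genes of the Gi/o and beta-arrestin arm were tested, 6 of them above 0 for breed, with a median log2 difference of 0.0027. RGS19, a brake on Gi/o signalling that lies 417 bp from TCEA2, was at -0.020 (SE 0.072, adjusted p = 0.970), the calcium channel CACNA1A at -0.058 (SE 0.12, adjusted p = 0.945) and the G protein subunit GNB1 at 0.12 (SE 0.097, adjusted p = 0.814) by edgeR. Downstream of the PACAP receptor, 13 of 25 genes of the Gs and cyclic AMP arm were tested, 4 of them above 0, with a median of -0.031. There the regulatory subunits of protein kinase A, PRKAR1B and PRKAR1A, were at 0.11 (SE 0.10, adjusted p = 0.838) and -0.11 (SE 0.12, adjusted p = 0.877), and the catalytic subunit PRKACA at 0.014 (SE 0.16, adjusted p = 0.990). Of 14 regulators of dynorphin and enkephalin transcription 4 were tested, 1 of them above 0, with a median of -0.13; JUN was at 0.20 (SE 0.13, adjusted p = 0.773), CREBBP at -0.090 (SE 0.17, adjusted p = 0.938) and CREB1 at -0.17 (SE 0.21, adjusted p = 0.890). PCSK1, GNB1, PRKAR1B, PRKAR1A and CREB1 overlap another annotated locus, so their counts are uncertain.

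**Figure D5:**
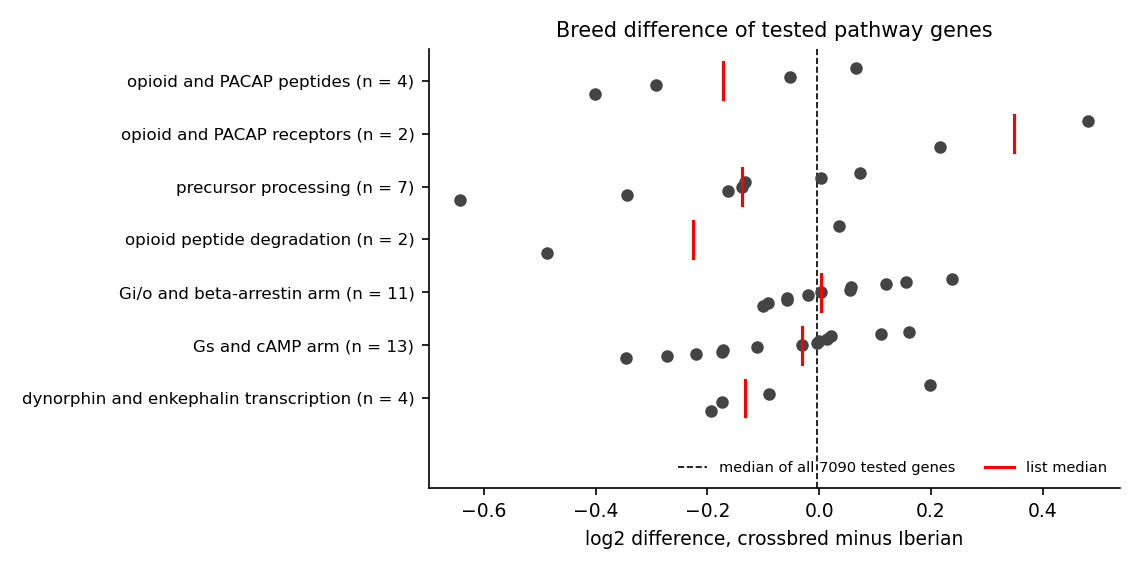
Breed log2 difference (horizontal axis, crossbred minus Iberian) of each tested gene of the pathway lists (points), with the list medians (red bars) and the median of all 7090 tested genes (dashed line). The peptide genes have a median of -0.17 and the 2 receptors 0.35, on 4 and 2 genes.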

How the data were processed

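RNA of the hypothalamus of 20 pigs was sequenced from messenger RNA libraries in pairs of 76-base reads, as the labels' protocols state. The submitters' processing notes name FastQC, Trim Galore, HISAT2, HTSeq and DESeq2 and the build Sscrofa11.1, while versions, annotation and strand setting are not given in the sources used here. The authors deposited raw counts per gene, 1 column per animal, with no normalization. The 5 summary lines stayed out of library sizes and tests, and of all entries they took 80.2 to 88.1% (no feature), 3.89 to 9.50% (not unique), 2.73 to 5.92% (low alignment quality), 0.548 to 0.665% (not aligned) and 0.0864 to 0.121% (ambiguous).

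Symbols came from a reference table that named 14857 of 25880 identifiers (57.4%), and positions from RefSeq genes of Sscrofa11.1, which carry no strand in the table used. Tests on these counts used edgeR 4.0.16 under R 4.3.3 (TMM scaling, filter at 10 counts and 15 in total, robust quasi-likelihood fit) with 1 mean for each of the 4 groups over all 20 libraries. Tested were breed, breed within each sex, sex, and the interaction, with Benjamini-Hochberg adjustment over all 7090 genes kept. The fit was tested on simulated data with known changes. CPM are the deposited counts over the total of the genes kept times the TMM factor of the library, scaled to an equal size, and correlations used log2 CPM with a prior count of 2. Permutation tests (scipy 1.17.1) were two-sided, exact for groups of 5 and with 100000 resamples for groups of 10, and their p-values are unadjusted where no adjusted value is given. A planned adjustment of these over the members is left out, because the members and lists were chosen with earlier results of these data known. For the same reason no list was given a test of its own.

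Named genes were the 4 members, all related precursors and receptors, every called gene and the 3 most abundant genes of each other pathway list, the 3 most abundant genes of marker lists, and for each member the 3 genes with the highest r. PCSK1, CACNA1B and KCNJ5 fell outside that rule and were chosen after their values were seen. Some marker genes of the tissue check also fell outside it, as did HCRT, named for its planned relation with PDYN. A listed receptor gene is not reported here. The alternatives tried were DESeq2 1.42.0, limma 3.58.1 (voom with sample weights), size factors by RLE, filtering at 1 CPM in 5 libraries or not at all, a block for replicate number, a fit that was not robust, breed plus sex without interaction, fits of the compared groups alone, and library sizes without the 13 mitochondrial messengers. Further ones were an additive term for whether low-quality alignments took above 4.5% of entries, fits of the libraries below that share, and the omission of each library in turn. The term and the low-share fits without Iberian male replicate 5 were added after seeing the data. Pairs of libraries within a group differed by a chi-square per degree of freedom of 2.45 to 73.8, so none was counted as a repeat. Intervals of counts cover counting and library spread as fitted, and reads without molecular identifiers are not independent molecules.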

Additional observations from a re-analysis of the deposited data

How the results depend on the processing

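Over 20 member results, 654 alternative values were computed. Among them were permutation tests of CPM, which had unadjusted p-values only, some of them under 0.05 as given above. In the alternatives that had an adjusted p, no member passed 0.05. The smallest was 0.149, for ADCYAP1 and breed without Iberian male replicate 5. Of the 654 values, 622 kept their direction and 32 reversed. The labels name no pairing of animals by replicate number. Deviations from the group means correlated between same-numbered libraries at a median r of 0.015, against -0.001 for other numbers. Of 30 same-numbered pairs 5 had r over 0.1, as did 7 of 120 other pairs. With the replicate block, no member was called, PNOC in males turned to 0.039 and the interaction count fell to 0.

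Reversals under the low-quality share term were PNOC for breed (-0.59), in females (-0.83), sex (-0.20) and interaction (0.49), and with Iberian male replicate 5 also left out -0.87, -1.12, -0.20 and 0.50, where PENK in females was -0.061. PNOC in males, at -0.011, turned to 0.069 with voom, 0.015 without a filter, 0.013 with the 1 CPM filter and 0.025 as the log2 ratio of mean CPM. With each library left out in turn, PNOC ran from -0.030 to 0.23 for breed, -0.011 to 0.38 in females, -0.21 to 0.32 in males, -0.043 to 0.25 for sex and -0.39 to 0.17 for the interaction, PENK in females from -0.086 to 0.16 and the ADCYAP1 interaction from -0.22 to 0.0078. The causes were not tested.

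Among pathway genes for breed, the share term gave RGS19 0.17, PRKAR1B -0.022, PRKAR1A 0.074 and PRKACA -0.50, and without Iberian male replicate 5 as well 0.016, -0.066, 0.099 and -0.74, with PCSK1N at 0.063 and CREBBP at 0.030. voom gave CACNA1A 0.050 and CREBBP 0.064. Left-out libraries gave PCSK1N -0.17 to 0.014, NPEPPS -0.028 to 0.14, RGS19 -0.066 to 0.016, CACNA1A -0.10 to 0.055, PRKACA -0.050 to 0.15 and CREBBP -0.14 to 0.11. Spearman's rho turned the sign for PDYN with PNOC (-0.057), PNOC with striatal markers (0.021) and ADCYAP1 with striatal markers (0.13).

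Genes called for breed, 16 as reported, were 27 with DESeq2, 78 without a filter, 0 with the share term, 1 with the term and without Iberian male replicate 5, and 2 to 23 with libraries left out. In females the count was 1 with voom, 17 without a filter, 4 with only the groups compared and 0 to 8 with libraries left out. In males it was 17 with DESeq2, 10 with voom, 48 without a filter, 1 with the 1 CPM filter, 0 with the share term or the low-share libraries, 4 with the term and 0 with the low-share libraries when Iberian male replicate 5 was left out too, and 0 to 7 with libraries left out. For sex it was 12 without a filter, 9 with the 1 CPM filter and 5 to 6 with libraries left out, and for the interaction 2 with DESeq2, 7 without a filter, 0 with the share term and 0 to 1 with libraries left out. Counting error limits PDYN, PENK and PNOC, while for ADCYAP1 its 10.8% lay below the spread of 18.6% between libraries.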

Other observations

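Of the genes of opioid receptor signalling, the potassium channel subunit KCNJ5, which Gi/o proteins open, had too few counts for the filter. Chosen after its values were seen, it had 2, 1, 4, 2 and 1 counts in crossbred males and 0, 0, 1, 1 and 0 in crossbred females, against 1, 0, 6, 7 and 7 in Iberian males and 3, 5, 5, 4 and 5 in Iberian females. The totals were 12 counts in crossbred and 43 in Iberian pigs. The female groups did not overlap, and how many of all genes share this was not counted. In the edgeR fit without a filter, which called 78 genes for breed, its log2 difference was -2.18 (SE 0.53, adjusted p = 0.0150). The share of low-quality alignments separates the female groups in the same way, and its part in this difference was not tested.

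CACNA1B, a calcium channel subunit that opioid receptors restrain, had the smallest p of its list between sexes and was also chosen after its values were seen. It averaged 29.7 ± 5.998 CPM in males and 19.7 ± 5.32 CPM in females (SD, n = 10 each), with an edgeR log2 difference of 0.58 (SE 0.15, unadjusted p = 0.000529, adjusted p = 0.536). Between sexes, 255 of all 7090 genes had an unadjusted p under 0.05 by edgeR. Iberian males averaged 36.5 CPM in the 3 libraries with a low share of low-quality alignments and 22.8 CPM in the 2 with a high share, beside 20.4 CPM in Iberian females, all with a high share. Crossbred animals, all with a low share, averaged 28.3 CPM in males and 19.01 CPM in females. A fit with the share as a term was run, but its sex difference for CACNA1B is not reported here, so the part of the share was not judged.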
